A study of Polyandrocarpa zorritensis and Clavelina lepadiformis with 36 samples.

Results

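The 67 ortholog pairs described here code for proteins of the extracellular matrix, for the integrins that hold cells to that matrix, and for the junctions that hold cells to each other, in the colonial tunicates *P. zorritensis* and *C. lepadiformis*. They were taken out of 4424 pairs of reciprocal best hits between the species by the name of the best human match. The name patterns covered collagens, laminins, nidogens, perlecan, agrin, fibrillins, fibulins, hemicentins, Fraser proteins, fibronectin, thrombospondins, integrins, matrix proteases of the MMP and ADAMTS families, cadherins, protocadherins, claudins and ZO proteins. They also covered tenascin and talins, for which no pair was found. The 67 pairs carry 55 names, and pairs that share a name are numbered. The name is that of the *P. zorritensis* transcript except in 1 pair (HMCN1 pair 4), and 50 pairs have the same name in both species. By name, 3 of the pairs are not matrix or junction genes, namely LOX5, a lipoxygenase that makes lipid mediators, LOXH1, known in humans from the hair cells of the ear, and PCDP1, a protein of cilia. They met the letters of the rule and were kept in all counts, which leaves 64 others.

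RNA had been sequenced from 36 samples, 18 of each species, over 5 stages of the asexual cycle. Zooids are the feeding adults, stolons are the vessels in tunic that grow from their base, and pre-buds are the swellings along stolons from which buds arise. Dormant tissue was the spherule in *P. zorritensis* and the winter bud in *C. lepadiformis*, and germinating tissue was dormant tissue left to develop for 48 h at 18 °C or 24 °C. Germinating tissue had 6 samples in each species, 3 at each temperature, which the authors put into 1 mean, and the other stages had 3 samples each, every one pooled from several specimens. Dormant spherules of *P. zorritensis* were frozen straight from the field in spring, whereas its zooids, stolons and pre-buds grew in the laboratory from spherules of the same rope, so dormancy and the field cannot be told apart in this species. The *C. lepadiformis* tissue was all from 1 laboratory colony. No genotype or drug distinguished the groups. The values are the authors' stage means of TPM, an abundance relative to all transcripts of a sample that is corrected for transcript length, after a scaling between libraries by TMM factors, and they are called scaled TPM here. Each stage of a species has 1 such mean, so no spread between samples, no error and no test could be given for any difference, and the read depth of the samples is unknown. Because whole tissues were sequenced, fewer cells of a type and less RNA per cell cannot be told apart.

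A pair was counted as higher or lower in the first of 2 stages where the means differed at least 2-fold after adding 1 to each and the larger mean was 5 scaled TPM or more. This rule understates changes of weak transcripts. A highest mean of at least 5 was reached by 60 of the 67 pairs in each species and by 56 in both. Counts are given out of all 67 and are set beside the share of all 4424 pairs that met the same rule. Log2 ratios always have the first-named stage on top. After the authors' scaling, the dormant stage of *P. zorritensis* still sat at a median of -0.19 log2 units below the geometric mean of the 5 stages over all transcripts, while every other stage of either species lay within 0.08.

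In animals, sheets of cells rest on a basement membrane, a thin mesh of laminin and type IV collagen tied together by nidogen and perlecan. Below it, fibrillar collagens, fibrillins and other large proteins make up the looser matrix, which proteases of the MMP and ADAMTS families cut and remodel. Integrins anchor cells to the matrix, cadherins join neighbouring cells, and claudins close the gap between epithelial cells near their outer face. Tunicates also wrap their bodies in the tunic, an outer matrix rich in cellulose.

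The matrix and junction genes were mostly strongest in zooids and stolons and were seldom strongest in dormant or germinating tissue. Among pairs with a highest mean of at least 5, counted out of all 67, the highest mean in *P. zorritensis* fell in zooids for 32 pairs (47.8%, beside 29.0% of all pairs), in stolons for 15 (22.4% beside 15.4%), in pre-buds for 8 (11.9% beside 9.56%), in dormant tissue for 3 (4.48% beside 16.6%) and in germinating tissue for 2 (2.99% beside 16.6%). By the same rule the *C. lepadiformis* figures were 26 pairs in zooids (38.8% beside 40.8%), 21 in stolons (31.3% beside 15.5%), 8 in pre-buds (11.9% beside 13.1%), 1 in dormant tissue (1.49% beside 7.26%) and 4 in germinating tissue (5.97% beside 16.1%). The share in zooids of *C. lepadiformis* was therefore close to that of all pairs. With no minimum, zooids were highest for 39 and 31 of the 67 pairs. Both species had the same highest stage, with a highest mean of at least 5 in each, in 24 pairs (35.8% beside 30.2%). Of these, 17 were highest in zooids (25.4% beside 19.2%), 6 in stolons (8.96% beside 4.52%) and 1 in pre-buds (1.49% beside 1.85%). With no minimum mean, dormant tissue held the lowest mean of 32 pairs in *P. zorritensis* (47.8% beside 32.0%) and of 17 in *C. lepadiformis* (25.4% beside 14.6%), and of 30 (beside 26.9%) and 17 (beside 14.2%) once the stages were rescaled to a common median.

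**Figure D1:**
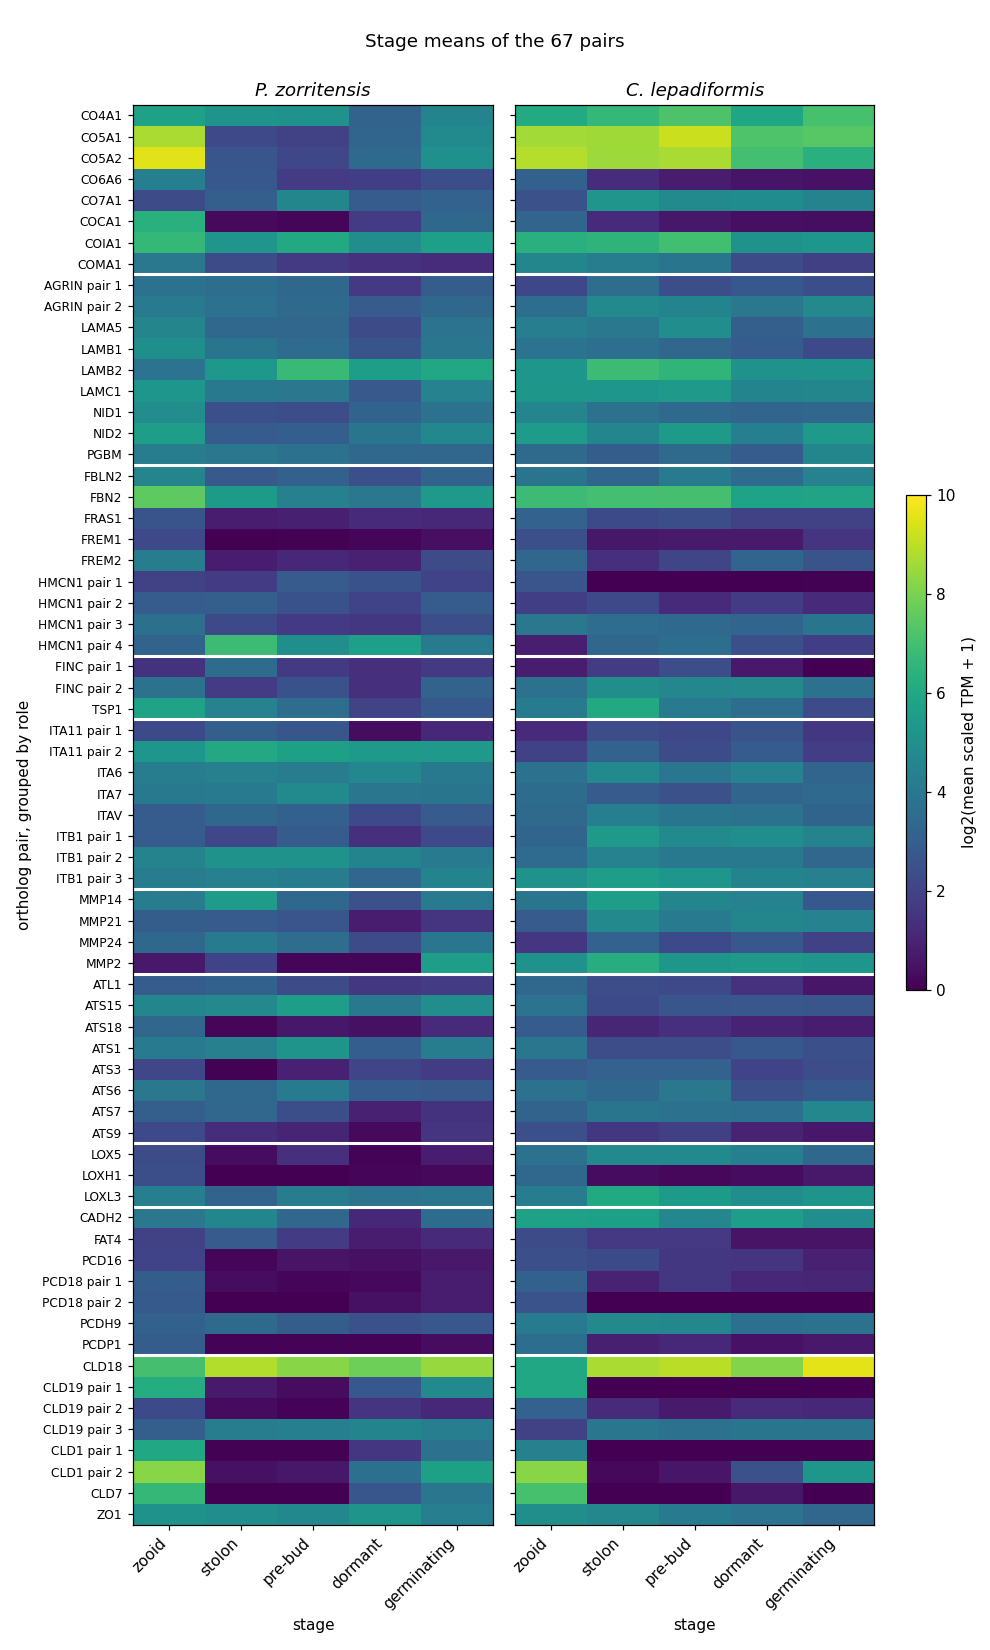
Stage means of the 67 pairs as log2 of scaled TPM plus 1 (colour), with stages from zooid to germinating on the horizontal axis of each species and pairs grouped by role from collagens at the top to claudins and ZO1 at the bottom. Each cell is 1 mean without an error. The zooid column is brightest for 39 *P. zorritensis* and 31 *C. lepadiformis* transcripts, of which 32 and 26 reach a mean of 5.

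Markers of several cell types were far stronger in zooids than in the other tissues. The summed level of 8 marker pairs of ciliated cells was 294 scaled TPM in *P. zorritensis* zooids and at most 9.22 in the other stages, and it was 365 and at most 3.41 in *C. lepadiformis*. The 9 digestive pairs summed to 425 in zooids and at most 19.4 elsewhere in *P. zorritensis*, and to 2198 and at most 60.6 in *C. lepadiformis*. In each species 7 of the 9 were past 2-fold lower in dormant tissue than in zooids (77.8% beside 26.8% and 24.7% of all pairs). Others went the other way. In *C. lepadiformis* 1 CBPA2 pair had 45.4 in dormant tissue against 4.69 in zooids, and CTRB1 had 16.1 in stolons against 11.5 in zooids. SUIS of *P. zorritensis* had 5.32 in dormant tissue against 5.06 in zooids. The 6 muscle pairs behaved differently between the species. They summed to 2175 in zooids, 0.424 in stolons, 0.759 in pre-buds, 201 in dormant and 204 in germinating tissue of *P. zorritensis*, but to 820.1 in zooids and at most 20.4 in any other stage of *C. lepadiformis*. The muscle markers TNNC1 and TNNI1 stood at 63.7 and 126 in dormant *P. zorritensis* and at 0.433 and 0.229 in its pre-buds. The only neural marker found, SYT1, had 23.9 in zooids and at most 1.86 elsewhere in *P. zorritensis*, and 29.6 and at most 11.6 in *C. lepadiformis*. The 11 pairs of blood cells and immunity ran from 198 in zooids to 480.3 in stolons of *P. zorritensis* and from 380.1 in zooids to 1169 in germinating tissue of *C. lepadiformis*. Single pairs of this list went both ways. Stolons of *P. zorritensis* had 4 higher (36.4% beside 8.52%) and 3 lower (27.3% beside 21.0%) than zooids. Those of *C. lepadiformis* had 6 higher (54.5% beside 10.9%) and 4 lower (36.4% beside 22.5%). The part of all these markers in the results below was not tested.

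Of 8 collagen pairs, 7 were highest in zooids of *P. zorritensis*, and the fibrillar collagens differed widely between the species. CO5A2, a chain of fibrillar collagen named CO1A1 in *C. lepadiformis*, had means of 745 in zooids, 5.39 in stolons, 3.42 in pre-buds, 9.70 in dormant and 31.7 in germinating tissue of *P. zorritensis*. In *C. lepadiformis* the same pair had 471 in zooids, 367 in stolons, 423 in pre-buds, 127 in dormant and 81.4 in germinating tissue. CO5A1, another chain of this collagen type, had 428 in zooids, 3.63 in stolons, 2.81 in pre-buds, 8.68 in dormant and 25.5 in germinating tissue of *P. zorritensis*, against 388 in zooids, 382 in stolons, 588 in pre-buds, 149 in dormant and 168 in germinating tissue of *C. lepadiformis*. In stolons and pre-buds, both chains stood at 367 or more in *C. lepadiformis* and at 5.39 or less in *P. zorritensis*. The pairs moved in opposite directions between dormant tissue and pre-buds. CO5A1 and CO5A2 were higher in dormant tissue of *P. zorritensis* (log2 ratio 1.34 and 1.28) and lower in that of *C. lepadiformis* (-1.97 and -1.73). Only these 2 members (2.99%) moved past 2-fold in opposite ways in this comparison, as did 1.02% of all pairs. In *P. zorritensis* the muscle markers were higher in dormant tissue than in pre-buds too.

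Other collagens of *P. zorritensis* zooids were much weaker in its other stages. COCA1, a collagen that binds to the surface of fibrils (COEA1 in *C. lepadiformis*), had 81.0 in zooids, 0.187 in stolons, 0.138 in pre-buds, 2.45 in dormant and 9.41 in germinating tissue of *P. zorritensis*. Its level in *C. lepadiformis* was 8.51 in zooids, 1.27 in stolons, 0.549 in pre-buds, 0.319 in dormant and 0.304 in germinating tissue. CO6A6, a chain of the beaded type VI collagen, had 18.9 in zooids, 5.83 in stolons, 2.43 in pre-buds, 2.57 in dormant and 4.36 in germinating tissue of *P. zorritensis*. In *C. lepadiformis* CO6A6 had 7.67 in zooids, 1.42 in stolons, 0.744 in pre-buds, 0.501 in dormant and 0.387 in germinating tissue, again with zooids on top. COMA1, a collagen of tissue junctions in humans, had 14.9 in zooids, 4.05 in stolons, 2.24 in pre-buds, 1.68 in dormant and 1.44 in germinating tissue of *P. zorritensis*. COMA1 was less limited to zooids in *C. lepadiformis*, with 22.8 in zooids, 17.8 in stolons, 13.8 in pre-buds, 3.93 in dormant and 2.77 in germinating tissue. CO7A1, whose human counterpart forms the anchoring fibrils below the skin, was the collagen of *P. zorritensis* that was not highest in zooids. It had 3.82 in zooids, 7.12 in stolons, 23.0 in pre-buds, 6.56 in dormant and 7.81 in germinating tissue there, with the peak in pre-buds. In *C. lepadiformis* CO7A1 was highest in stolons, with 4.55 in zooids, 36.5 in stolons, 26.9 in pre-buds, 27.8 in dormant and 21.4 in germinating tissue, while CO4A1, CO5A1 and COIA1 were highest in pre-buds of that species. With the other transcripts of its Trinity gene added, the group of assembled transcripts taken as 1 gene, CO7A1 of *P. zorritensis* had 105 in dormant tissue, against 85.1 in pre-buds, so its peak in pre-buds belongs to the paired transcript alone.

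Among the pairs of the basement membrane, type IV collagen and the laminin chains LAMA5, LAMB1 and LAMC1 were lowest in dormant tissue of *P. zorritensis* and past 2-fold higher in germinating tissue. CO4A1, the type IV collagen that forms the mesh of this membrane (CO4A5 in *C. lepadiformis*), had 51.4 in zooids, 34.8 in stolons, 33.7 in pre-buds, 8.10 in dormant and 21.9 in germinating tissue of *P. zorritensis*. Dormant tissue was its lowest stage there by a wide margin. In *C. lepadiformis* CO4A1 had 69.1 in zooids, 99.5 in stolons, 146 in pre-buds, 59.8 in dormant and 134 in germinating tissue, so dormant tissue was lowest again and germinating tissue lay near pre-buds. It was past 2-fold lower in dormant tissue than in pre-buds (log2 ratio -1.93 in *P. zorritensis*, -1.28 in *C. lepadiformis*) and past 2-fold higher in germinating than in dormant tissue (1.33 and 1.15). COIA1, the collagen that releases endostatin, had 101 in zooids, 36.2 in stolons, 66.9 in pre-buds, 29.0 in dormant and 48.9 in germinating tissue of *P. zorritensis*, and 79.5 in zooids, 89.4 in stolons, 124 in pre-buds, 33.9 in dormant and 37.5 in germinating tissue of *C. lepadiformis*.

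The laminin chains of *P. zorritensis* followed CO4A1. A laminin is built of an alpha, a beta and a gamma chain, of which LAMA5, LAMB1 and LAMC1 are examples. LAMA5 had 22.6 in zooids, 9.54 in stolons, 8.76 in pre-buds, 3.85 in dormant and 13.1 in germinating tissue of *P. zorritensis*. LAMC1 had 37.3 in zooids, 15.6 in stolons, 14.6 in pre-buds, 5.92 in dormant and 20.7 in germinating tissue, and LAMB1 had 30.8 in zooids, 13.7 in stolons, 10.3 in pre-buds, 5.13 in dormant and 14.1 in germinating tissue. All 3 chains were lowest in dormant tissue and past 2-fold higher in germinating tissue than there, with log2 ratios of 1.54 for LAMA5, 1.65 for LAMC1 and 1.30 for LAMB1. In *C. lepadiformis* none of the 3 passed 2-fold between germinating and dormant tissue. There LAMA5 had 18.4 in zooids, 14.9 in stolons, 28.6 in pre-buds, 7.12 in dormant and 12.2 in germinating tissue, with a peak in pre-buds. LAMC1 of *C. lepadiformis* had 38.1 in zooids, 37.4 in stolons, 41.1 in pre-buds, 21.6 in dormant and 22.9 in germinating tissue, lowest in dormant tissue. LAMB1 of that species had 13.1 in zooids, 11.5 in stolons, 8.80 in pre-buds, 6.51 in dormant and 3.69 in germinating tissue, with its lowest mean in germinating tissue. With 1 other transcript of its Trinity gene, LAMB1 there had 57.6 in pre-buds, 26.3 in dormant and 29.0 in germinating tissue. Dormant tissue was then its lowest stage.

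A second beta chain had another pattern. LAMB2 (named LAMB1 in *C. lepadiformis*) had 13.2 in zooids, 39.4 in stolons, 106 in pre-buds, 48.1 in dormant and 61.9 in germinating tissue of *P. zorritensis*, with pre-buds on top and zooids at the bottom. In *C. lepadiformis* it had 37.3 in zooids, 115 in stolons, 92.6 in pre-buds, 33.4 in dormant and 34.4 in germinating tissue. It was thus past 2-fold higher in stolons than in zooids of both species, at log2 ratios of 1.51 and 1.60, unlike LAMA5, LAMB1 and LAMC1, which were past 2-fold lower in stolons of *P. zorritensis*. Nidogens tie laminin to type IV collagen. NID2 (NID1 in *C. lepadiformis*) had 48.0 in zooids, 6.61 in stolons, 6.98 in pre-buds, 13.9 in dormant and 24.5 in germinating tissue of *P. zorritensis* and 45.4 in zooids, 23.3 in stolons, 42.8 in pre-buds, 19.1 in dormant and 41.4 in germinating tissue of *C. lepadiformis*. NID1 had 28.9 in zooids, 4.47 in stolons, 4.18 in pre-buds, 8.40 in dormant and 12.1 in germinating tissue of *P. zorritensis*. In *C. lepadiformis* NID1 had 22.4 in zooids, 12.3 in stolons, 9.56 in pre-buds, 8.63 in dormant and 8.99 in germinating tissue. Both nidogen pairs were highest in zooids of each species and past 2-fold lower in dormant tissue than there. NID1 and NID2 belong to the same Trinity gene in each species, as do both AGRIN pairs and ATS1 with ATS15, so these are not separate genes. PGBM, the perlecan core protein, had 17.8 in zooids, 14.4 in stolons, 12.3 in pre-buds, 9.21 in dormant and 8.88 in germinating tissue of *P. zorritensis*, highest in zooids. Germinating tissue was its highest stage in *C. lepadiformis*, with 10.1 in zooids, 6.64 in stolons, 9.87 in pre-buds, 6.42 in dormant and 22.9 in germinating tissue and a log2 ratio of 1.69 over dormant tissue. AGRIN pair 1, a heparan sulfate proteoglycan, had 12.3 in zooids, 11.3 in stolons, 9.18 in pre-buds, 2.15 in dormant and 6.76 in germinating tissue of *P. zorritensis*, lowest in dormant tissue. The *C. lepadiformis* partner was highest in stolons, with 3.49 in zooids, 11.0 in stolons, 4.34 in pre-buds, 5.68 in dormant and 4.24 in germinating tissue. AGRIN pair 2 ran between 6.24 (dormant tissue) and 16.7 (zooids) for *P. zorritensis* and between 11.3 (zooids) and 26.2 (stolons) for *C. lepadiformis*.

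**Figure D2:**
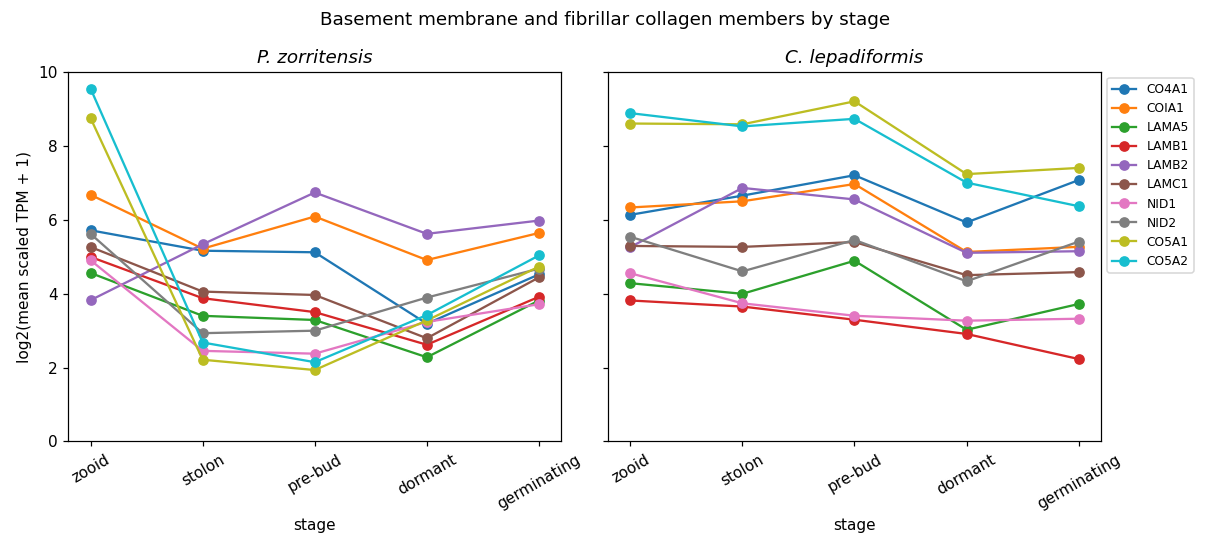
Stage means of 8 members of the basement membrane and 2 fibrillar collagens as log2 of scaled TPM plus 1, by stage in each species, with 1 point a mean and no error. In *P. zorritensis* CO5A1 and CO5A2 have 428 and 745 scaled TPM in zooids and 5.39 or less in stolons and pre-buds, and CO4A1, LAMA5, LAMB1 and LAMC1 are lowest in dormant tissue. In *C. lepadiformis* all lines but COIA1 run flatter, CO5A1 and CO5A2 most of all. COIA1 spans 3.65-fold over the stages there, beside 3.48-fold in *P. zorritensis*.

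Of the 9 pairs of fibrillins, fibulins, hemicentins and Fraser proteins, FBN2 was the strongest. FBN2, a fibrillin of elastic microfibrils (FBN3 in *C. lepadiformis*), had 181 in zooids, 43.1 in stolons, 19.7 in pre-buds, 14.8 in dormant and 41.6 in germinating tissue of *P. zorritensis*. Its level in *C. lepadiformis* was 115 in zooids, 127 in stolons, 133 in pre-buds, 54.0 in dormant and 55.7 in germinating tissue. Dormant tissue was the lowest stage of FBN2 in both species. The Fraser proteins FRAS1, FREM1 and FREM2, which fasten epithelia to the matrix below in vertebrates, were highest in zooids of both species, with 5.00, 3.64 and 17.3 in *P. zorritensis* and 7.82, 4.43 and 8.91 in *C. lepadiformis*. FRAS1 had 5.00 in zooids, 0.673 in stolons, 0.849 in pre-buds, 1.30 in dormant and 1.18 in germinating tissue of *P. zorritensis*, and 7.82 in zooids, 3.68 in stolons, 4.28 in pre-buds, 2.82 in dormant and 2.88 in germinating tissue of *C. lepadiformis*, and was past 2-fold lower in dormant tissue than in zooids of both. FREM2 had 17.3 in zooids, 0.698 in stolons, 1.18 in pre-buds, 0.865 in dormant and 3.95 in germinating tissue of *P. zorritensis*. In *C. lepadiformis* FREM2 had 8.91 in zooids, 1.65 in stolons, 3.20 in pre-buds, 8.47 in dormant and 5.11 in germinating tissue, and it was the only member past 2-fold higher there in dormant tissue than in pre-buds. FBLN2, matched to a fibulin that binds basement membranes, had 22.2 in zooids, 6.01 in stolons, 7.47 in pre-buds, 4.46 in dormant and 8.18 in germinating tissue of *P. zorritensis*. In *C. lepadiformis*, where its best match is a tunicate protein, it had 13.6 in zooids, 8.59 in stolons, 16.0 in pre-buds, 10.4 in dormant and 20.6 in germinating tissue, with the highest mean in germinating tissue and not in zooids. Hemicentins are very large proteins that link cells across basement membranes in worms and vertebrates. HMCN1 pair 4 was the one of 4 hemicentin pairs with a strong stolon peak, with 8.19 in zooids, 114 in stolons, 30.5 in pre-buds, 48.9 in dormant and 15.8 in germinating tissue of *P. zorritensis*. In *C. lepadiformis* the paired transcript had 0.812 in zooids, 8.96 in stolons, 11.2 in pre-buds, 4.44 in dormant and 2.61 in germinating tissue. With 2 other transcripts of its Trinity gene added, *C. lepadiformis* had 136 in zooids, 206 in stolons, 98.1 in pre-buds, 154 in dormant and 89.3 in germinating tissue, so the low zooid value of this pair does not hold for the gene as a whole in that species. HMCN1 pair 1 had 2.85 in zooids, 2.43 in stolons, 6.34 in pre-buds, 4.71 in dormant and 3.03 in germinating tissue of *P. zorritensis*. In *C. lepadiformis* HMCN1 pair 1 had 5.28 in zooids and 0.047 in germinating tissue and was listed at 0 in the other 3 stages. HMCN1 pairs 2 and 3 reached at most 7.13 and 11.8 in *P. zorritensis* and 3.67 and 14.5 in *C. lepadiformis*.

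Thrombospondin and fibronectin, glycoproteins that cells attach to, were strongest in stolons in 3 of 6 cases (3 pairs in 2 species). TSP1, a thrombospondin, had 53.1 in zooids, 20.5 in stolons, 10.8 in pre-buds, 3.20 in dormant and 5.72 in germinating tissue of *P. zorritensis*. In *C. lepadiformis* it had 16.5 in zooids, 65.6 in stolons, 16.5 in pre-buds, 11.3 in dormant and 3.99 in germinating tissue, with the peak in stolons. TSP1 was past 2-fold lower in dormant tissue than in stolons of both species (log2 ratio -2.36 and -2.44), yet stolons stood past 2-fold below zooids in *P. zorritensis* (-1.33) and past 2-fold above them in *C. lepadiformis* (1.93). FINC pair 2, a fibronectin match, moved in opposite ways in that comparison too. It had 12.5 in zooids, 2.44 in stolons, 4.67 in pre-buds, 1.53 in dormant and 8.16 in germinating tissue of *P. zorritensis*, and 12.7 in zooids, 29.8 in stolons, 23.6 in pre-buds, 24.9 in dormant and 12.4 in germinating tissue of *C. lepadiformis*. FINC pair 1 was a stolon transcript of *P. zorritensis*, with 1.74 in zooids, 10.6 in stolons, 2.22 in pre-buds, 1.53 in dormant and 2.25 in germinating tissue. The paired transcript was weaker in *C. lepadiformis*. It had 0.765 in zooids, 2.34 in stolons, 4.21 in pre-buds and 0.608 in dormant tissue and was listed at 0 in germinating tissue. With 1 other transcript of its Trinity gene, it had 3.01 in zooids, 16.9 in pre-buds and 15.3 in germinating tissue.

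Integrins varied less over the stages than most other groups of members. The median difference between the highest and the lowest stage was 1.07 log2 units for the 8 integrin pairs in *P. zorritensis*, beside 2.20 for all 67 members and 1.34 for all 4424 pairs, and 1.28 in *C. lepadiformis*, beside 1.75 and 1.20. No integrin pair was highest in zooids of *P. zorritensis* and 1 was in *C. lepadiformis*, while stolons were the highest stage of 4 and 6 pairs. ITA11 pair 2, matched to a collagen-binding alpha chain, had 37.0 in zooids, 64.1 in stolons, 50.8 in pre-buds, 40.7 in dormant and 40.3 in germinating tissue of *P. zorritensis*. The paired transcript of *C. lepadiformis* had 2.79 in zooids, 7.92 in stolons, 3.88 in pre-buds, 6.60 in dormant and 2.55 in germinating tissue. With 1 other transcript of its Trinity gene, it had 23.8 in zooids, 85.7 in stolons, 75.7 in dormant and 62.0 in germinating tissue. ITB1 pair 3, matched to the beta chain that most human integrins of the matrix share, had 17.6 in zooids, 19.3 in stolons, 17.4 in pre-buds, 8.98 in dormant and 21.9 in germinating tissue of *P. zorritensis* and 34.4 in zooids, 47.2 in stolons, 37.3 in pre-buds, 21.5 in dormant and 19.5 in germinating tissue of *C. lepadiformis*. ITB1 pair 2 had 21.2 in zooids, 34.0 in stolons, 32.9 in pre-buds, 21.6 in dormant and 17.0 in germinating tissue of *P. zorritensis*, and 10.1 in zooids, 20.8 in stolons, 15.5 in pre-buds, 15.5 in dormant and 8.93 in germinating tissue of *C. lepadiformis*. Stolons were its highest stage in both species. ITA6, in humans the alpha chain of laminin receptors, had 17.5 in zooids, 19.2 in stolons, 17.8 in pre-buds, 24.0 in dormant and 15.6 in germinating tissue of *P. zorritensis*. It was the only integrin highest in dormant tissue of that species, with a lead that does not reach 1.5-fold. In *C. lepadiformis* ITA6 had 12.3 in zooids, 26.8 in stolons, 14.1 in pre-buds, 20.8 in dormant and 8.59 in germinating tissue. ITA11 pair 1 had 3.73 in zooids, 7.13 in stolons, 5.46 in pre-buds, 0.242 in dormant and 1.23 in germinating tissue of *P. zorritensis*, the lowest dormant level of the group. Its level in *C. lepadiformis* was 1.35 in zooids, 4.14 in stolons, 3.52 in pre-buds, 5.10 in dormant and 2.08 in germinating tissue, highest in dormant tissue. ITB1 pair 1 had 6.59 in zooids, 3.39 in stolons, 6.61 in pre-buds, 1.56 in dormant and 3.62 in germinating tissue of *P. zorritensis*, and 8.55 in zooids, 40.9 in stolons, 26.4 in pre-buds, 29.0 in dormant and 21.1 in germinating tissue of *C. lepadiformis*. Dormant tissue was past 2-fold lower than zooids in *P. zorritensis* and past 2-fold higher in *C. lepadiformis*. ITA7 and ITAV (ITA8 in *C. lepadiformis*) ran between 13.8 and 25.9 and between 3.58 and 9.39 in *P. zorritensis*, and between 4.61 and 10.6 and between 8.28 and 18.2 in *C. lepadiformis*. Summed over its Trinity gene, ITB1 pair 1 of *P. zorritensis* had 7.15 in dormant tissue, against 9.87 in zooids, and was no longer past 2-fold.

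The proteases of the MMP family, which cut collagens and other matrix proteins, leaned to stolons in *C. lepadiformis*. All 4 pairs had their highest mean in stolons of *C. lepadiformis*, and all 4 were past 2-fold higher in stolons than in zooids there. In *P. zorritensis* stolons were the highest stage of 2 of the 4 pairs, and 1 pair was past 2-fold higher in stolons than in zooids. MMP14, a protease held in the membrane of the cell, had 17.8 in zooids, 44.7 in stolons, 9.32 in pre-buds, 4.61 in dormant and 16.9 in germinating tissue of *P. zorritensis*. In *C. lepadiformis* it had 14.0 in zooids, 47.8 in stolons, 22.2 in pre-buds, 20.5 in dormant and 5.72 in germinating tissue. Stolons were the highest stage of MMP14 in both species, past 2-fold above pre-buds (log2 ratio of pre-buds over stolons -2.15 and -1.07), above zooids (stolons over zooids 1.28 and 1.71) and above dormant tissue (dormant tissue over stolons -3.03 and -1.18). Germinating tissue then parted the species, since MMP14 was past 2-fold higher there than in dormant tissue of *P. zorritensis* (1.67) and past 2-fold lower in *C. lepadiformis* (-1.68).

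MMP2, a secreted gelatinase that MMP14 activates in mammals, had the largest ratio of any member between germinating and dormant tissue. In *P. zorritensis* it had 0.611 in zooids, 2.98 in stolons, 0.119 in pre-buds, 0.108 in dormant and 47.7 in germinating tissue. The difference of germinating over dormant tissue was 5.46 log2 units with 1 added to each mean. Both temperatures and all 6 germinating samples are merged in that mean, so it is unknown how many samples carried it. MMP2 was present in every stage of *C. lepadiformis*, with 33.3 in zooids, 73.5 in stolons, 37.7 in pre-buds, 41.7 in dormant and 37.2 in germinating tissue. MMP21, a member of the family that acts in left-right patterning in vertebrates, had 6.65 in zooids, 6.24 in stolons, 5.24 in pre-buds, 0.726 in dormant and 1.90 in germinating tissue of *P. zorritensis*, and 6.30 in zooids, 25.1 in stolons, 16.0 in pre-buds, 22.9 in dormant and 20.6 in germinating tissue of *C. lepadiformis*. MMP24 (MMP20 in *C. lepadiformis*) had 9.29 in zooids, 16.3 in stolons, 10.8 in pre-buds, 4.01 in dormant and 14.3 in germinating tissue of *P. zorritensis*, and 1.99 in zooids, 7.78 in stolons, 3.76 in pre-buds, 5.59 in dormant and 2.91 in germinating tissue of *C. lepadiformis*. Both were past 2-fold lower in dormant tissue than in zooids of *P. zorritensis* and past 2-fold higher in *C. lepadiformis*.

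ADAMTS proteases trim large proteoglycans and collagen precursors. Of 8 pairs of this family, dormant tissue was the lowest stage of 5 in *P. zorritensis* and of 2 in *C. lepadiformis*. ATS15 and ATS1 peaked in pre-buds of *P. zorritensis*, where ATS15 had 23.0 in zooids, 25.3 in stolons, 47.8 in pre-buds, 14.9 in dormant and 28.8 in germinating tissue and ATS1 had 16.2 in zooids, 19.4 in stolons, 35.3 in pre-buds, 7.01 in dormant and 17.8 in germinating tissue. Both were highest in zooids of *C. lepadiformis*, where ATS15 had 13.2 in zooids, 3.75 in stolons, 5.31 in pre-buds, 5.60 in dormant and 5.25 in germinating tissue. ATS1 had 14.4 in zooids, 4.18 in stolons, 4.19 in pre-buds, 5.77 in dormant and 4.46 in germinating tissue in that species. ATS6 had 14.7 in zooids, 9.51 in stolons, 17.0 in pre-buds, 6.60 in dormant and 6.15 in germinating tissue of *P. zorritensis* and 12.8 in zooids, 9.36 in stolons, 14.7 in pre-buds, 4.50 in dormant and 5.75 in germinating tissue of *C. lepadiformis*. It was past 2-fold lower in dormant tissue than in pre-buds of both species, but 2 other transcripts of its Trinity gene in *C. lepadiformis* were far stronger, and with them the gene had 194 in dormant tissue, against 172 in pre-buds. ATS7 (ATS12 in *C. lepadiformis*) had 7.09 in zooids, 8.92 in stolons, 4.32 in pre-buds, 0.876 in dormant and 1.79 in germinating tissue of *P. zorritensis*, lowest in dormant tissue. Its *C. lepadiformis* partner had 8.15 in zooids, 14.0 in stolons, 12.3 in pre-buds, 11.7 in dormant and 23.6 in germinating tissue, highest in germinating tissue. ATL1, an ADAMTS-like protein without the protease part, had 6.59 in zooids, 7.60 in stolons, 3.90 in pre-buds, 2.11 in dormant and 2.43 in germinating tissue of *P. zorritensis*, and 9.02 in zooids, 4.14 in stolons, 3.57 in pre-buds, 1.69 in dormant and 0.519 in germinating tissue of *C. lepadiformis*. ATS18 (ATS16 in *C. lepadiformis*) had 8.87 in zooids, 0.103 in stolons, 0.578 in pre-buds, 0.364 in dormant and 1.37 in germinating tissue of *P. zorritensis*, and 6.53 in zooids, 1.10 in stolons, 1.53 in pre-buds, 0.96 in dormant and 0.756 in germinating tissue of *C. lepadiformis*. ATL1 and ATS18 were past 2-fold lower in dormant tissue than in zooids of both species. ATS3 and ATS9 reached at most 3.38 and 3.65 in *P. zorritensis* and 7.93 and 4.43 in *C. lepadiformis*. LOXL3, an enzyme that crosslinks collagen and the only lysyl oxidase among the 3 LOX names, had 19.2 in zooids, 7.96 in stolons, 18.0 in pre-buds, 12.9 in dormant and 14.2 in germinating tissue of *P. zorritensis*. In *C. lepadiformis* LOXL3 was highest in stolons, with 17.6 in zooids, 65.9 in stolons, 43.1 in pre-buds, 29.2 in dormant and 35.0 in germinating tissue, so that stolons stood below zooids in *P. zorritensis* (log2 ratio -1.17) and above them in *C. lepadiformis* (1.85). The lipoxygenase LOX5 had 3.98 in zooids, 0.258 in stolons, 1.54 in pre-buds, 0.064 in dormant and 0.743 in germinating tissue of *P. zorritensis*, and 12.6 in zooids, 26.7 in stolons, 26.1 in pre-buds, 18.8 in dormant and 9.19 in germinating tissue of *C. lepadiformis*. LOXH1 was a zooid transcript, with 4.33 in zooids, 0.014 in stolons, 0.004 in pre-buds, 0.086 in dormant and 0.164 in germinating tissue of *P. zorritensis*, and 9.05 in zooids, 0.263 in stolons, 0.173 in pre-buds, 0.247 in dormant and 0.605 in germinating tissue of *C. lepadiformis*.

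Cadherins and protocadherins carry adhesion between cells, and the classical cadherin among them was low in dormant tissue of *P. zorritensis*. CADH2, matched to N-cadherin, had 14.5 in zooids, 22.9 in stolons, 8.96 in pre-buds, 1.18 in dormant and 10.6 in germinating tissue of that species. In *C. lepadiformis* it had 51.7 in zooids, 49.8 in stolons, 23.6 in pre-buds, 46.1 in dormant and 28.8 in germinating tissue, where dormant tissue was near the top. The log2 ratio of dormant tissue over pre-buds was -2.19 in *P. zorritensis*, whereas *C. lepadiformis* had 0.94, and that of germinating over dormant tissue was 2.41 and -0.66. CADH2 was past 2-fold lower in pre-buds than in stolons of both species (-1.26 and -1.05). With 2 other transcripts of its Trinity gene added, *C. lepadiformis* had 203 in zooids, 202 in stolons, 135 in pre-buds, 174 in dormant and 158 in germinating tissue. Pre-buds then no longer passed 2-fold below stolons, and dormant tissue stood below both zooids and stolons. The ratios given for *C. lepadiformis* are those of the paired transcript alone. PCD18 pair 1, a protocadherin, had 6.65 in zooids, 0.245 in stolons, 0.096 in pre-buds, 0.152 in dormant and 0.702 in germinating tissue of *P. zorritensis*, and 7.67 in zooids, 1.00 in stolons, 2.10 in pre-buds, 1.20 in dormant and 1.09 in germinating tissue of *C. lepadiformis*. PCD18 pair 2 had 6.06 and 4.96 in zooids of *P. zorritensis* and *C. lepadiformis* and at most 0.694 and 0.004 elsewhere. Both PCD18 pairs were thus highest in zooids of each species, as was PCD16, at 3.05 and 4.38. FAT4, a giant cadherin of tissue polarity, had 2.96 in zooids, 6.39 in stolons, 2.33 in pre-buds, 0.678 in dormant and 1.28 in germinating tissue of *P. zorritensis*, and 3.88 in zooids, 2.19 in stolons, 2.15 in pre-buds, 0.454 in dormant and 0.459 in germinating tissue of *C. lepadiformis*. PCDH9 was highest in stolons of both species, with 7.49 in zooids, 9.94 in stolons, 6.64 in pre-buds, 4.76 in dormant and 5.50 in germinating tissue of *P. zorritensis*, and 16.5 in zooids, 25.3 in stolons, 23.9 in pre-buds, 11.6 in dormant and 12.3 in germinating tissue of *C. lepadiformis*. PCDP1, the protein of cilia, had 6.83 in zooids, 0.079 in stolons, 0.07 in pre-buds, 0.063 in dormant and 0.261 in germinating tissue of *P. zorritensis*, and 11.3 in zooids, 0.843 in stolons, 1.14 in pre-buds, 0.409 in dormant and 0.611 in germinating tissue of *C. lepadiformis*. It was highest in zooids together with the ciliated cell markers.

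Claudins split into a set of zooids and a set of the other tissues, with the same split in both species. CLD1 pair 2 (CLD19 in *C. lepadiformis*) had 297 in zooids, 0.367 in stolons, 0.554 in pre-buds, 11.5 in dormant and 50.7 in germinating tissue of *P. zorritensis*. Its level in *C. lepadiformis* was 297 in zooids, 0.162 in stolons, 0.516 in pre-buds, 4.58 in dormant and 35.8 in germinating tissue. CLD7 (CLD19 in *C. lepadiformis*) was listed at 0 in stolons and had 98.8 in zooids, 0.001 in pre-buds, 5.47 in dormant and 14.0 in germinating tissue of *P. zorritensis*. CLD1 pair 1 had 62.5 in zooids, 0.053 in stolons, 0.041 in pre-buds, 1.98 in dormant and 12.5 in germinating tissue of *P. zorritensis*, and CLD19 pair 1 had 72.9 in zooids, 0.662 in stolons, 0.262 in pre-buds, 5.81 in dormant and 26.4 in germinating tissue. These 4 pairs were highest in zooids and under 1 scaled TPM in stolons and pre-buds in both species. In *C. lepadiformis*, CLD7 had 135 in zooids and 0.566 in dormant tissue and was listed at 0 in the other 3 stages, while CLD1 pair 1 and CLD19 pair 1 had 19.4 and 61.3 in zooids and were listed at 0 in all 4 others. In the same zooids the markers of cilia, gut and muscle were at their highest too.

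The zooid claudins were not equally absent from dormant tissue. In *P. zorritensis*, dormant tissue held 11.5 of CLD1 pair 2 against 0.554 in pre-buds, 5.47 of CLD7 against 0.001, 5.81 of CLD19 pair 1 against 0.262 and 1.98 of CLD1 pair 1 against 0.041, and all 4 pairs were past 2-fold higher again in germinating than in dormant tissue (log2 ratios of 2.04, 1.21, 2.01 and 2.18). The muscle markers of this species were raised in dormant and germinating tissue alike, at 201 and 204 in sum, against 0.759 in pre-buds. The ciliated markers summed to 6.94 in dormant and 9.22 in germinating tissue, against 1.49 in pre-buds, and the digestive ones to 19.4 and 18.8, against 8.92. Between dormant tissue and pre-buds, the log2 ratio was above 0 for all 8 ciliated pairs and for 6 of 9 digestive pairs. No ciliated pair reached a mean of 5 in either stage, and TEKT2 held 4.36 of the 6.94. Only 2 digestive pairs passed 2-fold. All 3 marker sums were thus higher in dormant tissue than in pre-buds, as the zooid claudins were, and their part in it was not tested. In *C. lepadiformis* only CLD1 pair 2 had such a step, at 35.8 in germinating against 4.58 in dormant tissue (2.72), while the muscle markers summed to 11.3 and 13.3. Of these 4 pairs, CLD1 pair 2 is the one with a caveat of assembly in *C. lepadiformis*, where 4 other transcripts of the Trinity gene brought it to 330 in zooids, 179 in stolons, 280.5 in pre-buds, 243 in dormant tissue and 327 in germinating tissue. The 4 other CLD7 transcripts of *C. lepadiformis* were all highest in zooids.

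CLD19 pair 2 was a weaker zooid transcript, at 3.70 in zooids of *P. zorritensis* and 7.84 in those of *C. lepadiformis*, and at most 1.88 and 1.31 in the other stages. With 2 other transcripts of its Trinity gene, CLD19 pair 2 of *P. zorritensis* had 65.0 in zooids, 40.9 in stolons, 49.4 in pre-buds, 52.3 in dormant and 64.7 in germinating tissue, so its limit to zooids belongs to the paired transcript alone in that species. CLD18 and CLD19 pair 3 ran the other way. CLD18 (CLD7 in *C. lepadiformis*), the strongest junction gene outside zooids, had 130.1 in zooids, 459 in stolons, 299 in pre-buds, 222 in dormant and 349 in germinating tissue of *P. zorritensis*, and 63.6 in zooids, 421 in stolons, 504 in pre-buds, 285 in dormant and 760.0 in germinating tissue of *C. lepadiformis*. CLD19 pair 3 had 7.19 in zooids, 17.2 in stolons, 19.2 in pre-buds, 21.7 in dormant and 18.2 in germinating tissue of *P. zorritensis* and 2.92 in zooids, 14.0 in stolons, 12.6 in pre-buds, 13.9 in dormant and 13.5 in germinating tissue of *C. lepadiformis*. Both were past 2-fold higher in stolons than in zooids of each species, and CLD19 pair 3 was the only member past 2-fold higher in dormant tissue than in zooids of both. Summed over its Trinity gene, CLD19 pair 3 of *P. zorritensis* had 18.2 in stolons, against 8.84 in zooids, and no longer passed 2-fold. ZO1, the scaffold that ties claudins to the cytoskeleton, had 34.2 in zooids, 29.0 in stolons, 24.2 in pre-buds, 35.1 in dormant and 18.5 in germinating tissue of *P. zorritensis* and 29.7 in zooids, 24.1 in stolons, 16.1 in pre-buds, 12.9 in dormant and 8.83 in germinating tissue of *C. lepadiformis*, and was never listed near 0.

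**Figure D3:**
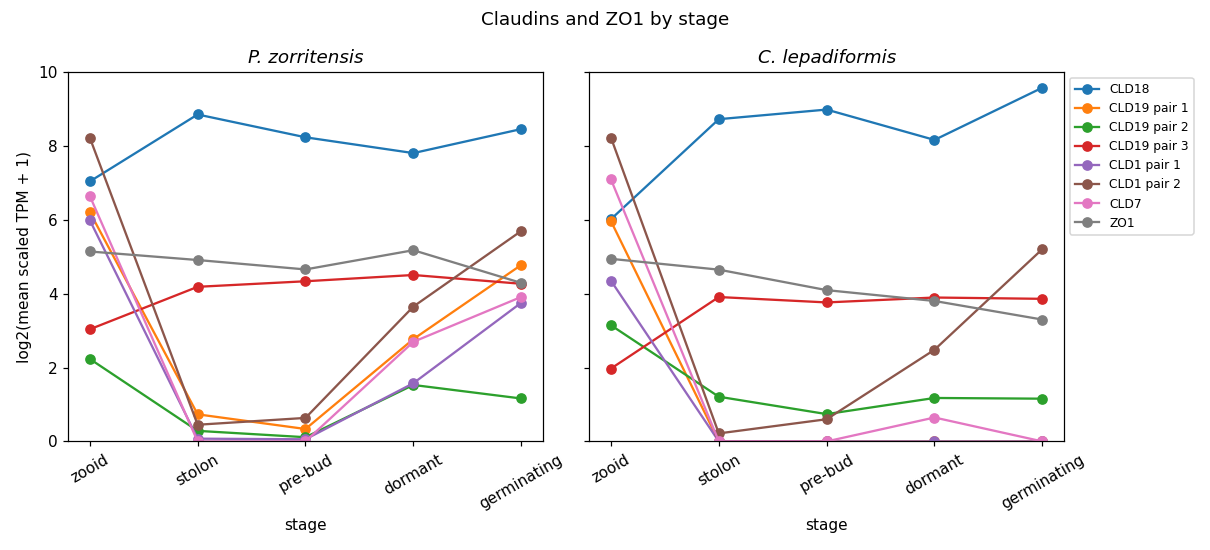
Stage means of 7 claudin pairs and ZO1 as log2 of scaled TPM plus 1, by stage in each species, each point 1 mean without an error. CLD1 pair 1, CLD1 pair 2, CLD7 and CLD19 pair 1 stand high in zooids and near 0 in stolons and pre-buds of both species, and CLD18 and CLD19 pair 3 are lowest in zooids. These 4 zooid claudins are above 0 again in dormant and germinating *P. zorritensis*. In *C. lepadiformis* CLD1 pair 2 is so too, at 4.58 in dormant and 35.8 in germinating tissue.

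Dormant tissue was compared with pre-buds to ask which matrix and junction genes differ between the resting bud and the bud that can develop at once. In *P. zorritensis* 21 of 67 members passed 2-fold in either direction (31.3% beside 15.8% of all pairs), and 13 did in *C. lepadiformis* (19.4% beside 7.78%). In *P. zorritensis* 5 members were higher (7.46% beside 5.52% of all pairs) and 16 were lower (23.9% beside 10.2%), and the median log2 ratio was -0.41 beside -0.09. In *C. lepadiformis* 1 member was higher (1.49% beside 3.37%) and 12 were lower (17.9% beside 4.41%), with medians of -0.22 and -0.08. The members higher in *P. zorritensis* were CO5A1, CO5A2, CLD1 pair 2, CLD7 and CLD19 pair 1, all of them highest in zooids of that species. CO4A1, COIA1, LAMA5, LAMB2 and ATS6 were lower in both species (7.46% of members beside 0.814% of all pairs), and 4 of these 5 are basement membrane genes. No member was higher in both (0 beside 0.407%), so 5 moved the same way (7.46% beside 1.22%), and CO5A1 and CO5A2 moved in opposite ways (2.99% beside 1.02%). LAMA5 and LAMB2 lost this place when the stages of *P. zorritensis* were rescaled, and LAMB2 and ATS6 lost it when the transcripts of a Trinity gene were summed, so CO4A1 and COIA1 alone met the rule under both. With the rescaled stages of *P. zorritensis*, dormant tissue had 6 members higher and 14 lower than pre-buds, 5 higher and 19 lower than stolons, and 4 higher and 34 lower than zooids.

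**Figure D4:**
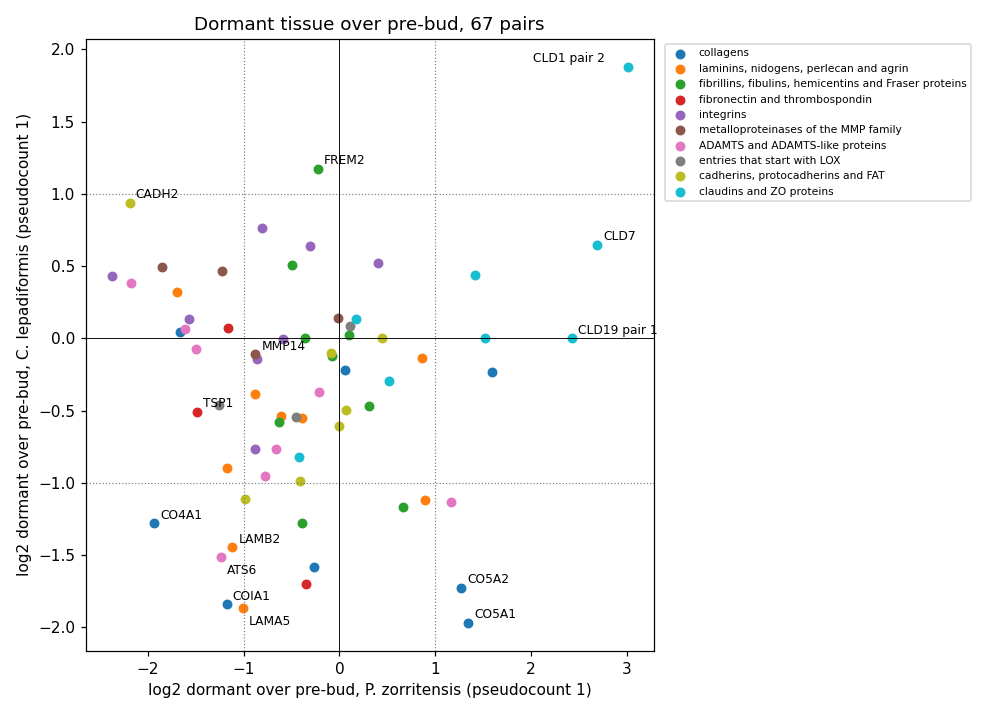
Log2 ratio of dormant tissue over pre-buds in *P. zorritensis* (horizontal) and *C. lepadiformis* (vertical), with 1 added to each mean, 1 point a pair and colours for roles. Dotted lines mark 2-fold. CO4A1, COIA1, LAMA5, LAMB2 and ATS6 lie beyond 2-fold at the lower left, and CO5A1 and CO5A2 at the lower right. CLD1 pair 2 at the upper right and ATS3 at the lower right pass 2-fold as well but had larger means under 5 in 1 species (4.58 in *C. lepadiformis* and 3.29 in *P. zorritensis*) and were not counted.

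Against stolons, dormant tissue of *P. zorritensis* had 4 members higher (5.97% beside 10.6%) and 22 lower (32.8% beside 12.1%), and that of *C. lepadiformis* 1 higher (1.49% beside 1.02%) and 12 lower (17.9% beside 3.23%). The median log2 ratio was -0.59 beside 0.02 in *P. zorritensis* and -0.48 beside -0.04 in *C. lepadiformis*. CADH2, MMP14, ITA11 pair 1 and ATS7 had the lowest ratios in *P. zorritensis* (-3.45, -3.03, -2.71 and -2.40), and TSP1, COMA1, LAMB2 and CO5A2 in *C. lepadiformis* (-2.44, -1.93, -1.76 and -1.52). FBN2, TSP1, ITB1 pair 3 and MMP14 were lower in both (5.97% beside 0.859%), of which ITB1 pair 3 dropped out after rescaling and after summing. With none higher in both (0 beside 0.181%), the members that moved the same way were these 4 (5.97% beside 1.04%), and CO5A1 moved in opposite ways (1.49% beside 0.633%). Either way, 26 members passed 2-fold in *P. zorritensis* (38.8% beside 22.8%) and 13 in *C. lepadiformis* (19.4% beside 4.25%).

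Against zooids the members were lower in 38 cases in *P. zorritensis* (56.7% beside 26.8%) and higher in 3 (4.48% beside 10.4%), and in *C. lepadiformis* lower in 26 (38.8% beside 24.7%) and higher in 8 (11.9% beside 9.40%). Lower in both were 21 members (31.3% beside 14.6%), among them 6 of the 8 collagens and the 4 zooid claudins. Summing over a Trinity gene left 17 of the 21, without LAMA5, CLD1 pair 2, ATS1 and ATS6, and rescaling left 18, without FRAS1, ATS1 and ATS6. CLD19 pair 3 was higher in both (1.49% beside 2.55%), which makes 22 the same way (32.8% beside 17.2%), and ITB1 pair 1, MMP21 and MMP24 moved in opposite ways (4.48% beside 2.37%). CO7A1 was also higher in both after summing, and CLD18 after rescaling. ITB1 pair 1 left the opposite movers after summing, and MMP24 after rescaling. Members past 2-fold either way numbered 41 in *P. zorritensis* (61.2% beside 37.2%) and 34 in *C. lepadiformis* (50.7% beside 34.1%). Stolons against zooids gave 6 members higher (8.96% beside 8.52%) and 27 lower (40.3% beside 21.0%) in *P. zorritensis*, and 18 higher (26.9% beside 10.9%) and 15 lower (22.4% beside 22.5%) in *C. lepadiformis*. LAMB2, HMCN1 pair 4, MMP14, CLD18 and CLD19 pair 3 were higher in stolons of both (7.46% beside 3.87%) and 10 members were lower (14.9% beside 13.2%), 15 the same way in all (22.4% beside 17.1%), while FINC pair 2, TSP1 and LOXL3 moved in opposite ways (4.48% beside 2.08%). After summing over a Trinity gene, HMCN1 pair 4 and CLD19 pair 3 were no longer higher in both, and CO7A1 was. CLD1 pair 2 was then no longer lower in both. Either way, 33 members passed 2-fold in each species (49.3% beside 29.5% in *P. zorritensis* and beside 33.4% in *C. lepadiformis*). In *C. lepadiformis* the share of members lower in stolons was close to that of all pairs, and the members higher there included 4 MMP pairs, 3 integrin pairs, both AGRIN pairs and TSP1. Stolons and pre-buds differed least. Pre-buds had 4 members higher (5.97% beside 5.40%) and 6 lower (8.96% beside 3.57%) than stolons in *P. zorritensis*, and 0 higher (beside 2.01%) and 4 lower (5.97% beside 4.23%) in *C. lepadiformis*, either way 10 (14.9% beside 8.97%) and 4 (5.97% beside 6.24%). MMP14 and CADH2 were lower in pre-buds of both species (2.99% beside 0.362%), the only 2 members to move the same way (beside 0.633%), with none higher in both (beside 0.271%) and none in opposite ways (beside 0.362%).

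The counts for germination differed between the species, a difference that could not be tested. Germinating tissue of *P. zorritensis* had 20 members higher than dormant tissue (29.9% beside 9.70%) and 1 lower (1.49% beside 3.87%), with a median log2 ratio of 0.68 beside 0.20, and the ratio was above 0 for 53 members (79.1% beside 64.1%). In *C. lepadiformis* 5 were higher (7.46% beside 3.96%) and 4 lower (5.97% beside 4.50%), with medians of -0.08 and -0.01. The 20 included 4 collagens, 4 pairs of laminins and agrin, 3 MMP pairs and 4 claudins, and 20 members were higher also after rescaling. CO4A1 and CLD1 pair 2 were higher in both species (2.99% beside 0.429%), none was lower in both (beside 0.429%), and MMP14 moved in opposite ways (1.49% beside 1.24%). The 2 the same way stand beside 0.859% of all pairs, and the counts either way were 21 in *P. zorritensis* (31.3% beside 13.6%) and 9 in *C. lepadiformis* (13.4% beside 8.45%). After summing over a Trinity gene, CLD1 pair 2 was no longer higher in both, which left CO4A1 alone (beside 0.475%). FINC pair 2 then joined MMP14 among the opposite movers (2 members beside 1.20%). The lower member of *P. zorritensis* was HMCN1 pair 4, at 15.8 in germinating against 48.9 in dormant tissue. The comparisons of dormant with other stages share its 1 mean, and in *P. zorritensis* the dormant samples alone came frozen from the field.

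**Figure D5:**
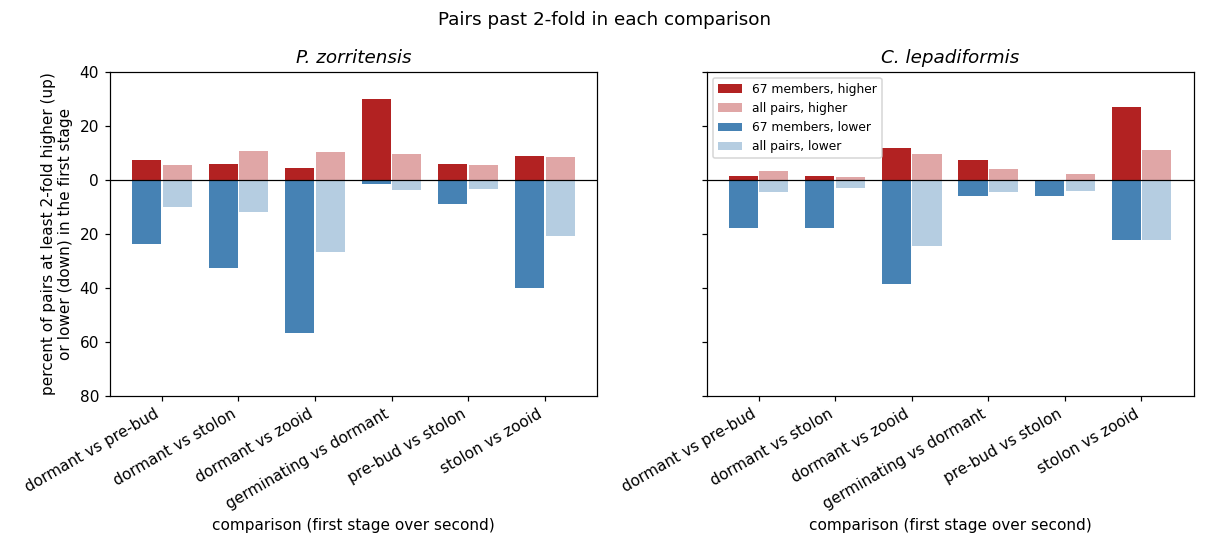
Percent of the 67 members (dark bars) and of all 4424 pairs (pale bars) at least 2-fold higher (upward) or lower (downward) in the first stage of each comparison, by species. Members lower in dormant tissue exceed the share of all pairs in all 3 comparisons of both species, and the share higher in germinating tissue of *P. zorritensis* is 29.9% beside 9.70%.

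The other genes of matrix and adhesion were 79 pairs of enzymes, adaptors, polarity proteins, proteoglycans and receptors. In *P. zorritensis*, dormant tissue had 1 of the 79 higher (1.27% beside 5.52% of all pairs) and 13 lower (16.5% beside 10.2%) than pre-buds, 2 higher (2.53% beside 10.6%) and 16 lower (20.3% beside 12.1%) than stolons, and 4 higher (5.06% beside 10.4%) and 33 lower (41.8% beside 26.8%) than zooids. Germinating tissue of that species had 15 higher (19.0% beside 9.70%) and 5 lower (6.33% beside 3.87%) than dormant tissue. In *C. lepadiformis*, dormant tissue had 2 higher (2.53% beside 3.37%) and 9 lower (11.4% beside 4.41%) than pre-buds, 0 higher (beside 1.02%) and 9 lower (11.4% beside 3.23%) than stolons, and 12 higher (15.2% beside 9.40%) and 13 lower (16.5% beside 24.7%) than zooids. Its germinating tissue had 7 higher (8.86% beside 3.96%) and 9 lower (11.4% beside 4.50%) than dormant tissue. Of 10 adhesion adaptors, which include those that connect integrins to actin, 0 were higher and 3 lower (30% beside 10.2%) in dormant tissue than in pre-buds of *P. zorritensis*. In *C. lepadiformis* 0 were higher and 1 was lower (10% beside 4.41%). Vinculin was among the lower ones of *P. zorritensis*, with 14.7 in dormant tissue against 47.4 in pre-buds, and had 41.9 against 35.0 in *C. lepadiformis*. FERM2 went the other way in *P. zorritensis*, at 40.1 against 25.8. PCOC2, an enhancer of the enzyme that processes fibrillar collagen, followed CO5A1 and CO5A2, with 28.5 in zooids and 1.38 or less in stolons and pre-buds of *P. zorritensis*, and with 10.4 in zooids, 16.4 in stolons and 32.3 in pre-buds of *C. lepadiformis*.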

How the data were processed

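The signal values analysed were deposited by the authors as 1 mean per stage and species of TPM from kallisto, scaled between samples by TMM factors, for transcripts of a Trinity assembly of each species. Values of single samples were not used here, and both germination temperatures lie in 1 mean. A deposited sheet pairs the transcripts of the species by reciprocal best hits and gives the best human match of each. Its other columns list the stages in which the authors called a transcript up or down with voom, and they were not used. The count of columns of single samples left unused was 0.

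Members were chosen by name pattern, and the members and lists were chosen with earlier results of these data known. Ratios were log2 of the stage means plus 1, and a pair was called at 2-fold with a larger mean of at least 5. With 1 mean a stage, no test was run. Given with all 5 means were up to 4 pairs per role with the highest mean, up to 5 members per direction in each comparison, and members past the threshold in both species. Other pseudocounts, minimum means, thresholds, scalings and member sets were tried. Summing the transcripts of a Trinity gene and leaving out LOX5, LOXH1 and PCDP1 were chosen after seeing the data. Scripts ran in Python 3.11.15 with numpy 2.4.6, pandas 2.3.3 and matplotlib 3.10.9, and were tested on simulated data.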

Additional observations from a re-analysis of the deposited data

How the results depend on the processing

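No paired analysis was possible because each stage has 1 mean and no value per replicate, and for the same reason no replicate could be left out. Of 222 shares of members recomputed under 11 alternatives, 181 stayed within 1.5 times of those reported. Of 84 medians recomputed, none was counted as changing sign, but medians of very small size were left out of that count. Adding 5 instead of 1 to each mean gave 14.9% past 2-fold for dormant tissue against pre-buds and 23.9% against stolons in *P. zorritensis*, 7.46% for germinating against dormant tissue of *C. lepadiformis*, and 7.46% and 1.49% for pre-buds against stolons in *P. zorritensis* and *C. lepadiformis*. It left 4.48% the same way in both species for dormant tissue against pre-buds and 0% for pre-buds against stolons. A minimum mean of 20 gave, in *P. zorritensis*, 8.96%, 10.4% and 29.9% for dormant tissue against pre-buds, stolons and zooids, 14.9% for germinating against dormant tissue, 8.96% for pre-buds against stolons and 29.9% for stolons against zooids. In *C. lepadiformis* it gave 11.9% and 22.4% for dormant tissue against pre-buds and zooids and 23.9% for stolons against zooids. The shares the same way were then 4.48%, 13.4% and 8.96% for dormant tissue against pre-buds, dormant tissue against zooids and stolons against zooids, the shares highest in zooids 25.4% for *P. zorritensis* and 13.4% for *C. lepadiformis*, and the share with the same highest stage 11.9%. A 3-fold threshold gave 16.4% and 20.9% for dormant tissue against pre-buds and stolons, 16.4% for germinating against dormant tissue and 4.48% for pre-buds against stolons in *P. zorritensis*. It gave 5.97%, 5.97% and 29.9% for dormant tissue against pre-buds, stolons and zooids, 4.48% for germinating against dormant tissue and 1.49% for pre-buds against stolons in *C. lepadiformis*, and the same way 0%, 1.49%, 16.4%, 1.49% and 0% in the same order. These alternatives remove weak or small differences by construction. With a minimum mean of 1, or none, 10.4% were the same way for dormant tissue against stolons. Rescaling the stages left 4.48% the same way for dormant tissue against pre-buds, as did summing over a Trinity gene, which also left 1.49% for germinating against dormant tissue. Of 258 calls, rescaling kept 248 and summing kept 229, with 3 changes of sign, all for dormant tissue against pre-buds (CO7A1 in *P. zorritensis*, HMCN1 pair 4 and ATS6 in *C. lepadiformis*). Without LOX5, LOXH1 and PCDP1 every share stayed within 1.5 times. Read depth is unknown, so its limits are too.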
